A study of Homo sapiens with 6 samples.

Results

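The heat shock proteins and J-domain chaperones were examined in RNA-seq libraries of HCT116 cells, a human colorectal carcinoma line with a wild-type p53 response. Members were taken by symbol: the numbered genes of the HSPA, HSPB, DNAJA, DNAJB and DNAJC families, together with HSP90AA1, HSP90AB1, HSP90B1, HSPH1, HSPD1, HSPE1, HSF1 and HSF2. This rule found 74 of the 57905 genes in the count table, and 63 of them were among the 16565 genes that passed the low-count filter and were tested. No measured value entered the rule. The cells had received the vehicle DMSO (Nut 0h), or 10 µM Nutlin-3a for 1 h (Nut 1h) or 10 h (Nut 10h), with 2 biological replicates in each of the 3 conditions. Nutlin-3a blocks the binding of p53 to its inhibitor HDM2, so that the comparisons ask how chaperone transcripts differ early and late after p53 activation in a single cell line. The same Nut 0h libraries serve as the control for both times, and a vehicle matched in time was not analysed here.

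HSP70 proteins bind exposed hydrophobic stretches of unfolded proteins in a cycle driven by ATP. J-domain proteins deliver the clients and trigger ATP hydrolysis, while HSP110 proteins act as nucleotide exchange factors that release them. HSP90 proteins complete the folding of kinases and receptors, small heat shock proteins hold unfolded clients, and the HSPD1 and HSPE1 chaperonin folds proteins in the mitochondrial matrix. Transcription of the stress-inducible members is driven by HSF1, which binds heat shock elements in their promoters, whereas chaperones of the endoplasmic reticulum (ER) answer to the unfolded protein response.

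The libraries held between 26068076 and 35473485 counts assigned to genes. MDM2 and CDKN1A, the standard p53 targets, had log2 fold changes of 2.19 and 0.05 at Nut 1h and of 3.75 and 3.84 at Nut 10h. The epithelial markers EPCAM, CDH1, KRT8, KRT18, KRT19 and CDX2 were detected in all libraries and VIL1 had 0 to 10 counts, while the leukocyte genes PTPRC and CD3E and the collagen COL3A1 had at most 2 counts. COL1A1, a collagen of fibroblasts, had 621 to 1484 counts and the endothelial gene VWF 10 to 23. Several of these markers also moved at Nut 1h: EPCAM (0.46) and CDH1 (0.51) were higher, and KRT8 (-0.71), KRT18 (-0.36), KRT19 (-0.98), CDX2 (-1.29) and COL1A1 (-0.78) were lower, with adjusted p-values from 2.09e-06 to 0.0102. At Nut 10h EPCAM (-0.32, adjusted p = 0.0242) and KRT19 (0.87, adjusted p = 7.54e-05) were called and COL1A1 was not (-0.16, adjusted p = 0.232). Their part in the results was not tested. In such bulk RNA, a gene expressed by fewer cells and less RNA of that gene in each cell cannot be told apart.

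The promoters were searched for 4 motifs on both strands, since HSF1, the unfolded protein response and p53 each read a known sequence. They were RefSeq windows of 300 bases on GRCh38.p14, from 250 bases before the annotated gene start to 50 after it, and 64 of the 74 members had one. A heat shock element, meaning GAA, TTC and GAA, or TTC, GAA and TTC, with NN between neighbours, was present in 4 of them (6.25%), compared with 0.487% of all 27305 promoters. They belonged to DNAJA1, DNAJB6, HSPA6 and HSPA8. DNAJA1 rose at Nut 1h and fell at Nut 10h, DNAJB6 rose at Nut 1h, HSPA8 fell at Nut 10h, and HSPA6 was almost undetected before it. Their windows lie at chr9:33025023-33025322 (plus strand) for DNAJA1, chr11:123062087-123062386 (minus strand) for HSPA8, chr1:161524290-161524589 (plus strand) for HSPA6 and chr7:157336754-157337053 (plus strand) for DNAJB6. They are printed 5′ to 3′ on the strand of the gene, with the element in capitals.
DNAJA1: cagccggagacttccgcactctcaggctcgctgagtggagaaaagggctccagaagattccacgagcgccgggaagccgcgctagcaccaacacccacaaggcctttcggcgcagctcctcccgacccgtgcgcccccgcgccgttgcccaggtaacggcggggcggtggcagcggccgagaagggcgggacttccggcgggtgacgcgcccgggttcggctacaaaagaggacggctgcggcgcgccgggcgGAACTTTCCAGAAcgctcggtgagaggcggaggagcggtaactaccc
HSPA8: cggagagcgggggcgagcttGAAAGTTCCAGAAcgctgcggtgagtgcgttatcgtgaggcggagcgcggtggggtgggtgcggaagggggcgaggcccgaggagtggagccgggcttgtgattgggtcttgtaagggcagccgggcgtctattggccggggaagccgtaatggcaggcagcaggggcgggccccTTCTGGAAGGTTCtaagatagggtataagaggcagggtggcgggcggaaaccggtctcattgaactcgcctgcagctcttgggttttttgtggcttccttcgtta
HSPA6: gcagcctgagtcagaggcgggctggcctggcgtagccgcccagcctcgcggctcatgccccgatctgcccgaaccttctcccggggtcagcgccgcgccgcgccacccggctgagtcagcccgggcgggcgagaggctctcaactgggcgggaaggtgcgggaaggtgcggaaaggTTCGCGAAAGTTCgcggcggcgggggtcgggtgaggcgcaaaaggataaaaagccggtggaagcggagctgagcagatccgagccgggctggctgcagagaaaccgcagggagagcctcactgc
DNAJB6: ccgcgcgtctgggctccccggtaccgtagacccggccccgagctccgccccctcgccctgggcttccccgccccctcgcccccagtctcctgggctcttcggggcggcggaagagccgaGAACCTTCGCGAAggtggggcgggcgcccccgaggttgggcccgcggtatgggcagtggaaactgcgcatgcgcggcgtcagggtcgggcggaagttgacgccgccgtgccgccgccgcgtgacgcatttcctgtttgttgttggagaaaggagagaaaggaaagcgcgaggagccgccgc
HSPA8 carried 2 elements, the first bases of which are at -230 and -55 from the annotated start, while the element of DNAJA1 lay at bases 3 to 15 past it. The promoters of HSPA1A, HSPA1B, DNAJB1 and HSPH1 had no match to these letters in their windows. A match describes the sequence alone and was not tested as a binding site.

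The ER stress element, CCAAT and CCACG with 9 bases of any kind between them, was found in 2 members, HSPA5 and HSP90B1 (3.13% of member promoters and 0.0806% of all). Its first 5 letters are themselves a CCAAT box, the short motif CCAAT, which was present in 26 member promoters (40.6%) and in 35.7% of all. HSPA5 (BiP) is the HSP70 of the ER lumen and HSP90B1 (GRP94) its HSP90. Their windows are chr9:125241294-125241593 (minus strand) and chr12:103930160-103930459 (plus strand), shown because these 2 genes head the ER group, with the ER stress element in capitals.
HSPA5: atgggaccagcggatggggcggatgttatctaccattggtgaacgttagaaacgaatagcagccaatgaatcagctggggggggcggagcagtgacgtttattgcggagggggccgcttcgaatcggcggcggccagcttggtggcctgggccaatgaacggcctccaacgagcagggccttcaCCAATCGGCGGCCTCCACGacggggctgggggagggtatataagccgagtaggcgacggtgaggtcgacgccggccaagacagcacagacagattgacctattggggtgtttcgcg
HSP90B1: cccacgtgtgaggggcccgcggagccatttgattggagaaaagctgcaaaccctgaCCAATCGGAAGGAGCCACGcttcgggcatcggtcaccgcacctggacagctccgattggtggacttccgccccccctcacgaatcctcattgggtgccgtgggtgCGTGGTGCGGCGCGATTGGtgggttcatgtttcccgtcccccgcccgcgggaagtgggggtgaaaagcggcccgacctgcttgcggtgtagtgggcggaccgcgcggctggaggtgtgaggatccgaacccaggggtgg
HSP90B1 had 2 copies, with first bases at -194 and -89 from the start, the second on the opposite strand, and HSPA5 had 1 copy from -66. The p53 half-site was present in 8 member promoters (12.5%, compared with 6.54% of all), namely those of DNAJB7, DNAJB8, DNAJC6, DNAJC16, HSF2, HSP90AA1, HSPA2 and HSPB3. Of the 5 that were tested, DNAJC16 was higher at both times, HSPA2 was lower at both, and DNAJC6, HSF2 and HSP90AA1 were higher at Nut 1h and not called at Nut 10h. With an offset for the GC content of the transcripts, DNAJC16 and HSP90AA1 were the 2 higher ones at Nut 1h. Thus 4 of the 5 were higher at Nut 1h without the offset and 2 with it, compared with 30 and 20 of the 51 tested members whose windows lack the half-site and with 34.5% and 20.3% of all tested genes. Among the 4, the call of DNAJC6 was lost with DESeq2 (0.28, adjusted p = 0.133) and with no low-count filter (0.28, adjusted p = 0.0587). It was also lost without Nut 0h replicate 1 (0.30) or Nut 1h replicate 1 (0.26). The windows of DNAJC16, chr1:15526598-15526897, and HSPA2, chr14:64540491-64540790 (both plus strand), are printed as those of the 2 called at Nut 10h, with the match in capitals.
DNAJC16: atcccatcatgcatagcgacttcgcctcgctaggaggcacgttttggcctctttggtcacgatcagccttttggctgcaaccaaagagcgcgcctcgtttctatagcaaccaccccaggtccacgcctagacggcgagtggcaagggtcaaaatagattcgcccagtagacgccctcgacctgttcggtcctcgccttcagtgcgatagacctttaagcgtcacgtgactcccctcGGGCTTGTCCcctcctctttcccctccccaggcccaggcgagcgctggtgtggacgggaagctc
HSPA2: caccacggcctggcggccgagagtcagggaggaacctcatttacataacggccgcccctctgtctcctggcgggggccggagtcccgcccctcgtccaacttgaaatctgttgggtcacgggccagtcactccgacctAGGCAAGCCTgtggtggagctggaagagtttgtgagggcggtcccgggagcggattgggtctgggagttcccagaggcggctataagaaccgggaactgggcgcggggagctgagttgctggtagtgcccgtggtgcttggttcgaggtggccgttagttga

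**Figure D1:**
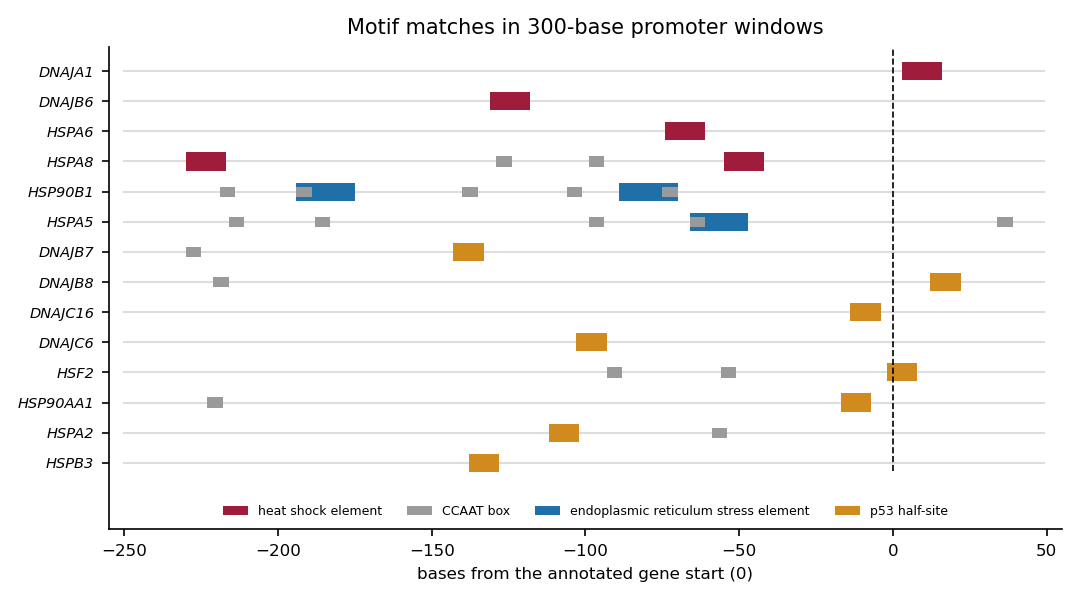
Positions of motif matches in the 300-base promoter windows of the 14 members with a heat shock element, an ER stress element or a p53 half-site. The x axis gives bases from the annotated gene start and each row is 1 gene; coloured boxes are the 3 elements and small grey boxes are CCAAT boxes. HSPA8 shows 2 heat shock elements and HSP90B1 2 ER stress elements.

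The members together took 1.88% ± 0.0194 (SD, n = 2) of the counts in the vehicle, 2.78% ± 0.0731 after 1 h and 1.65% ± 0.0919 after 10 h, and the ranges of the 3 conditions did not overlap. The 3 most abundant members held 54.1% to 58.3% of the members' counts in each library, so that this share mostly follows those genes. On a scale of CPM (counts scaled to library depth) per kilobase of the longest transcript, the level at Nut 0h was highest for HSP90AB1, the constitutive cytosolic HSP90 (1645 ± 21.0, SD, n = 2), followed by HSPA8, the constitutive cytosolic HSP70 (1324 ± 8.74), HSP90AA1, the inducible HSP90 (1000.3 ± 11.3), and the small heat shock protein HSPB1 (699 ± 113). HSPD1 (260.0 ± 0.677), HSPA5 (189 ± 8.44) and HSP90B1 (142 ± 0.799) came next. The Nut 0h libraries of these 7 genes did not overlap with those of their neighbours in this order. DNAJA1 (95.1 ± 1.16), DNAJB1 (94.8 ± 2.40), HSPA1B (86.4 ± 10.6) and HSF1 (75.1 ± 9.84) followed, and the Nut 0h libraries of each overlapped with those of the next gene in the order. These levels depend on the transcript chosen, and with the length of all merged exons 9 of the 10 highest genes were the same, but HSPA8 (630) then stood below HSP90AA1 (689).

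At Nut 10h, 6 of the 11 tested genes listed as stress-inducible and abundant cytosolic chaperones were lower and 0 were higher. HSPA1B, HSPA8, HSPH1, DNAJA1 and DNAJB1, which are the inducible and constitutive HSP70, the HSP110 and the main J-domain partners of the cytosol, each fell by 0.53 or more on the log2 scale against Nut 0h. Over all members, 14 of 63 (22.2%) were lower and 8 (12.7%) higher at Nut 10h, where 14.9% of all tested genes were lower and 14.1% higher. The median log2 fold change of the members was -0.12 and that of all tested genes 0.00017. That list holds 12 genes, and the median of its 11 tested ones was -0.53. The same 6 genes were called when an offset for GC content was included.

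HSPA1B (chr6:31795515-31798031, GRCh37) had 7807 and 6558 normalized counts in the vehicle, 5141 and 6841 after 1 h and 3291 and 3578 after 10 h. The Nut 10h libraries lay below all others, while the Nut 1h and Nut 0h libraries overlapped. By edgeR's quasi-likelihood test, which gave all adjusted p-values here unless another is named, Nut 10h differed from Nut 0h by -1.06 ± 0.13 on the log2 scale (SE, adjusted p = 2.8e-05). HSPA1A, its near-identical copy at chr6:31783320-31785723, had only 97.6 and 64.8, 64.2 and 99.4, and 41.6 and 48.4 normalized counts in the same order, and the treatment of reads that map to several places is not given in the sources used here, so that the split between the copies is uncertain. With the counts of both added, the same difference was -1.06 (adjusted p = 2.99e-05). HSPA1A alone fell by 0.85 (adjusted p = 0.033), and its call was lost without Nut 0h replicate 1 (-0.53, adjusted p = 0.256), without Nut 10h replicate 1 (-0.74, adjusted p = 0.0586) and with DESeq2 (-0.87, adjusted p = 0.102).

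HSPA8 (chr11:122928197-122933938, GRCh37) had 101255 and 100314 normalized counts in the vehicle, 99403 and 118796 after 1 h and 62878 and 67855 after 10 h. It thus stood lower in both Nut 10h libraries than in any other library, and differed from Nut 0h by -0.62 ± 0.11 on the log2 scale (adjusted p = 0.000535). The small nucleolar RNA genes SNORD14C and SNORD14D overlap its annotated exons on the same strand, and the strand setting of the counting is not given in the sources used here. DNAJB1, the J-domain partner most tied to the heat shock response, had 13612 and 13133 normalized counts in the vehicle, 8411 and 9630.3 after 1 h and 8098 and 8048 after 10 h. It was the only gene of this list lower at both times, at -0.57 after 1 h (adjusted p = 0.000118) and -0.73 after 10 h on the log2 scale (adjusted p = 5.39e-05), but with the GC-content offset the value at Nut 1h was -0.05 (adjusted p = 0.617).

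HSPH1, the HSP110 of the cytosol, had 9988 and 10099.7 normalized counts in the vehicle, 18218 and 18919.5 after 1 h and 6154 and 6719.6 after 10 h. DNAJA1, a J-domain partner of HSPA8, followed the same course, with 7342 and 7217, then 13667 and 15061, then 4892 and 5207. In both genes the 3 conditions did not overlap, with Nut 1h highest and Nut 10h lowest. At Nut 10h the log2 fold changes were -0.64 ± 0.09 (adjusted p = 0.000115) for HSPH1 and -0.53 ± 0.09 (adjusted p = 0.000716) for DNAJA1. At Nut 1h they were 0.89 and 0.98, and with the GC-content offset 0.20 (adjusted p = 0.0347) and 0.35 (adjusted p = 0.00154). With the offset and the replicate block together, HSPH1 was not called at Nut 1h (adjusted p = 0.0623).

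**Figure D2:**
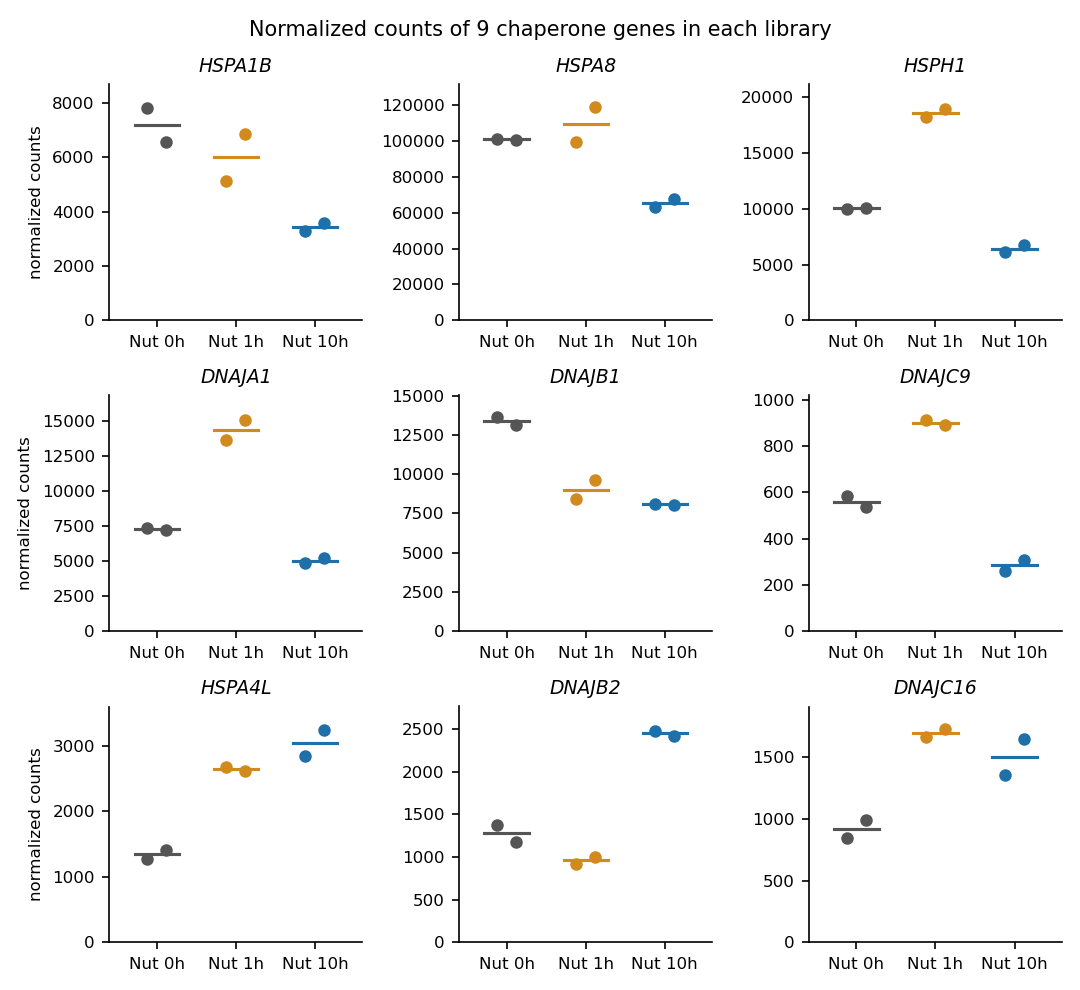
Normalized counts (y axis, from 0) of 9 chaperone genes by condition (x axis), with 1 point for each library and a line at the mean of the 2 replicates. HSPA1B, HSPA8, HSPH1, DNAJA1, DNAJB1 and DNAJC9 are lowest in the Nut 10h libraries, DNAJB1 by a small margin, and HSPA4L and DNAJB2 are highest there.

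The remaining tested genes of that list did not pass at Nut 10h. With no low-count filter, HSP90AA1 (-0.22, adjusted p = 0.0278) and HSPB1 (-0.28, adjusted p = 0.0145) were called lower there. HSP90AA1 had 114988 and 116839 normalized counts in the vehicle, 203560 and 212801 after 1 h and 97569 and 108391 after 10 h, and HSP90AB1 had 146504 and 143880, 197091 and 210461, and 128504 and 135793. Both were higher in all Nut 1h libraries, by 0.84 (adjusted p = 4.92e-06) and 0.49 on the log2 scale (adjusted p = 0.000465), which were 0.48 and 0.35 with the GC-content offset. At Nut 10h their log2 fold changes were -0.17 (adjusted p = 0.215) and -0.14 (adjusted p = 0.32). HSPB1, the most abundant small heat shock protein, had 37419 and 29761, then 10126 and 11842, then 32272 and 24802 normalized counts. It was low in the Nut 1h libraries alone (log2 fold change -1.61 ± 0.14, adjusted p = 4.94e-07, and -0.43, adjusted p = 0.000574, with the GC-content offset), and its Nut 10h value of -0.24 did not pass (adjusted p = 0.223). It passed without Nut 0h replicate 2 (-0.40, adjusted p = 0.0412) or without Nut 10h replicate 1 (-0.43, adjusted p = 0.0158). HSPB8, a partner of BAG3 in selective autophagy, had 168 to 186 normalized counts in the vehicle, 113 to 118 after 1 h and 186 to 203 after 10 h (0.14 at Nut 10h, adjusted p = 0.518).

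HSPA6, the strictly inducible HSP70 of human cells, was the list's untested gene. Its raw counts were 0 and 0 in the vehicle, 1 and 0 after 1 h, and 12 and 8 after 10 h, so that it did not pass the low-count filter. Its depth-scaled mean at Nut 10h was 3.33 times a floor set at 3 counts in each Nut 0h library, a ratio that depends on the floor chosen. No test is given for the difference between Nut 10h and Nut 0h, since both Nut 0h libraries had 0 counts. HSPA7, a gene next to it with a near-identical sequence, had 0 counts in all libraries. The other 9 untested members, DNAJB3, DNAJB7, DNAJB8, DNAJB13, HSPB2, HSPB3, HSPB6, HSPB7 and HSPB9, had between 0 and 35 counts over the 6 libraries together. HSPB6 had 8 and 12 counts in the vehicle, 1 and 0 after 1 h, and 6 and 8 after 10 h. It passed the low-count filter in fits with 1 library left out, which are not read as a test of so few counts.

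The transcription factors themselves did not pass at Nut 10h. HSF1, the regulator of the heat shock response, had 9353 and 7767 normalized counts in the vehicle, 3157 and 3506 after 1 h and 8532 and 7133 after 10 h. It fell by 1.36 ± 0.12 at Nut 1h (adjusted p = 4.75e-07), which became -0.14 (adjusted p = 0.118) with the GC-content offset. Its longest transcript is 64.7% GC. HSF2, which can pair with HSF1, had 676 and 709, then 1096 and 1096, then 600.4 and 710.0 normalized counts, and rose by 0.66 at Nut 1h (0.02 with the offset, adjusted p = 0.892). At Nut 10h the log2 fold changes of HSF1 and HSF2 were -0.13 (adjusted p = 0.445) and -0.08 (adjusted p = 0.63).

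Among the genes linked to the nucleus and the ribosome, 3 of 5 fell at Nut 10h, where 14.9% of all tested genes did. DNAJC9, a histone chaperone, had 583 and 536 normalized counts in the vehicle, 910.0 and 891 after 1 h and 262 and 307 after 10 h, and fell by 0.97 ± 0.12 between Nut 0h and Nut 10h (adjusted p = 2.45e-05). Exons of FAM149B1 overlap it on the opposite strand. DNAJC2 and HSPA14, which form the ribosome-associated complex that greets nascent chains, both rose at Nut 1h (0.60 and 0.66) and fell at Nut 10h. DNAJC2 had 1742 and 1637, 2478 and 2657, and 1297 and 1315 normalized counts, and HSPA14 had 1329 and 1312, 2019.6 and 2157, and 799 and 943. Their log2 fold changes at Nut 10h were -0.37 (adjusted p = 0.00831) and -0.60 (adjusted p = 0.000658), while at Nut 1h neither passed with the GC-content offset (0.12 and 0.04, adjusted p = 0.248 and 0.687). Without Nut 0h replicate 1, the Nut 10h value of DNAJC2 was -0.33 (adjusted p = 0.0812). DNAJC8, a spliceosome-associated protein, fell by 0.32 (adjusted p = 0.0231), a call that was lost when any 1 of 5 libraries was left out (adjusted p 0.0532 to 0.187). DNAJC21, a factor of ribosome maturation, and DNAJC17 did not pass at Nut 10h (0.13 and -0.13).

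HSPA2, an HSP70 best known from testis, had 163 and 173 normalized counts in the vehicle, 82.3 and 103 after 1 h and 83.1 and 71.7 after 10 h. It had the lowest log2 fold change of all tested members at Nut 10h (-1.12 ± 0.18, adjusted p = 0.000334) and was also lower at Nut 1h (-0.87, and -1.32 with the GC-content offset). HSPB11, which the current annotation names IFT25 for its role in intraflagellar transport, had 674 and 684, 966 and 948, and 480.5 and 551 normalized counts. It fell by 0.40 at Nut 10h (adjusted p = 0.0124), and -0.30 (adjusted p = 0.0833) without Nut 10h replicate 1. DNAJC1, a J-domain protein of the ER membrane, fell by 0.40 at Nut 10h (adjusted p = 0.0199), and by 0.22 (adjusted p = 0.291) without Nut 0h replicate 1. It was not called without Nut 1h replicate 1 or Nut 1h replicate 2 either (adjusted p = 0.0522 and 0.0529).

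The 8 members that rose at Nut 10h were led by HSPA4L, an HSP110 family member. It had 1277 and 1404 normalized counts in the vehicle, 2678 and 2606 after 1 h and 2838 and 3233 after 10 h, and rose by 1.18 ± 0.10 at Nut 10h (2.26-fold, adjusted p = 6.81e-07), or by 1.15 with the GC-content offset. HSPA4L lies at chr4:128702976-128761888 (GRCh37). At Nut 1h it was 0.98 (adjusted p = 1.63e-06), and 0.20 (adjusted p = 0.0269) with the offset. HSPH1 and HSPA4, the other HSP110 genes among the members, had log2 fold changes of -0.64 and -0.21 (adjusted p = 0.000115 and 0.0965) at Nut 10h. HSPA4 was called lower with the offset (-0.24, adjusted p = 0.0174).

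DNAJB2 (HSJ1), a J-domain protein that carries ubiquitylated clients to the proteasome, had 1375 and 1180.4 normalized counts in the vehicle, 923 and 1002 after 1 h and 2479.8 and 2415 after 10 h. It was the only member called lower at Nut 1h and higher at Nut 10h, and its rise at the later time was 0.94 ± 0.10 (1.92-fold, adjusted p = 9.03e-06). Its fall at Nut 1h (-0.41, adjusted p = 0.00321) turned to a rise of 0.31 (adjusted p = 0.00365) with the GC-content offset, and was not called without Nut 0h replicate 1 (-0.30, adjusted p = 0.0586) or Nut 1h replicate 1 (-0.35, adjusted p = 0.0695). DNAJB2 lies at chr2:220144064-220151620 (GRCh37) and shares no exon with another annotated gene.

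DNAJC16, a J-domain protein of the ER membrane with a thioredoxin domain, had 843 and 989 normalized counts in the vehicle, 1663 and 1727 after 1 h and 1354 and 1649.9 after 10 h. Its log2 fold changes were 0.89 at Nut 1h (0.45 with the offset for GC content, adjusted p = 0.000295) and 0.71 ± 0.12 at Nut 10h (adjusted p = 0.000377). HSPA12A, a divergent HSP70, had 999 and 1028, 1043 and 1128, and 1277 and 1399 normalized counts, and rose at Nut 10h alone (0.40, adjusted p = 0.00747, and 0.38, adjusted p = 0.052, without Nut 0h replicate 1). The other 4 rises were small, at 0.43 for DNAJB9, 0.32 for DNAJC10, and 0.29 for each of DNAJC3 and DNAJC14. None of these 4 was called when Nut 0h replicate 1 was left out (adjusted p = 0.0918, 0.24, 0.349 and 0.074). The calls of DNAJC10, DNAJC3 and DNAJC14 were also lost without Nut 1h replicate 1 (adjusted p = 0.0728, 0.0999 and 0.102) and without Nut 1h replicate 2 (adjusted p = 0.0753, 0.103 and 0.105), those of DNAJC10 and DNAJC3 without Nut 10h replicate 2 (adjusted p = 0.173 and 0.185), and that of DNAJC14 without Nut 0h replicate 2 or Nut 10h replicate 1 (adjusted p = 0.273 and 0.139). With DESeq2, DNAJB9, DNAJC3 and DNAJC14 were not called (adjusted p = 0.0521, 0.0627 and 0.14). Without Nut 0h replicate 1, HSPA4L, DNAJB2 and DNAJC16 were the 3 of these 8 still called, and 9 of the 22 calls in both directions were lost.

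**Figure D3:**
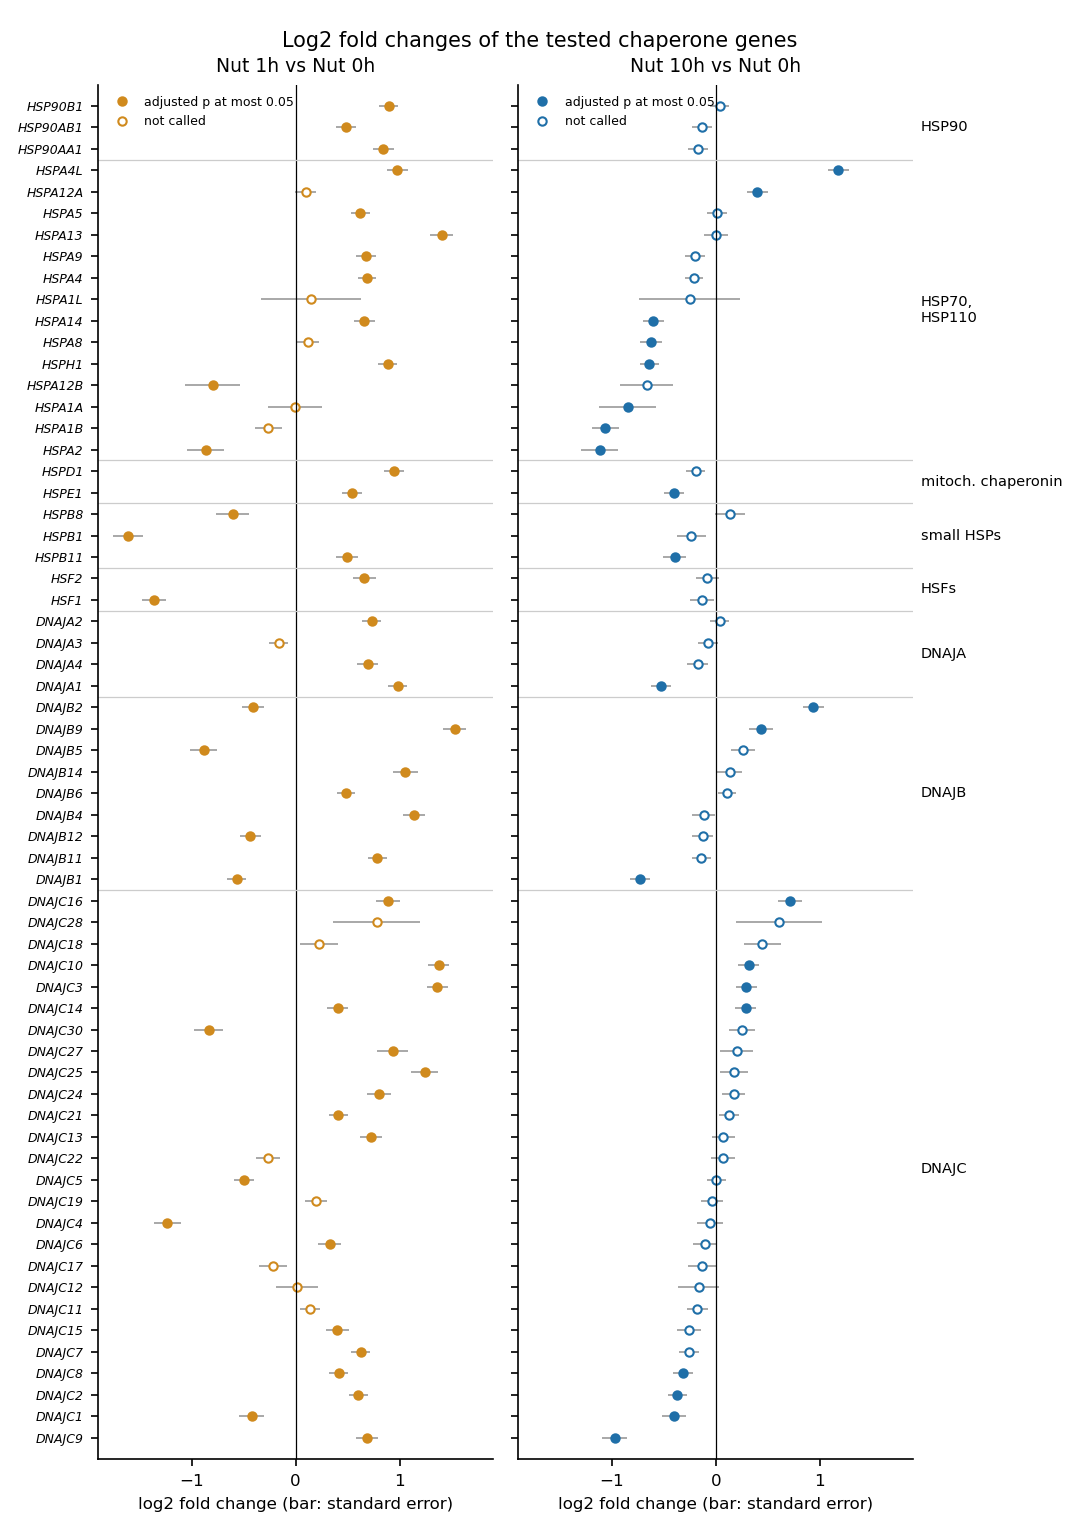
Log2 fold changes (x axis, with standard errors as bars) of the 63 tested members, grouped by family, at Nut 1h (left) and Nut 10h (right) against Nut 0h. Filled points have an adjusted p of at most 0.05 and open points were not called; at Nut 1h 37 members lie to the right as called and 13 to the left, and at Nut 10h 8 and 14.

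At Nut 1h the members moved more widely, and mostly upward. Of the 63 tested, 37 (58.7%) were higher and 13 (20.6%) lower than at Nut 0h, where 34.5% of all tested genes were higher and 32.3% lower. The median log2 fold change was 0.49 for the members and 0.05 for all tested genes. Of the 26 tested DNAJC genes 15 were higher and 4 lower. The 9 tested DNAJB genes had 5 and 4, and the 4 DNAJA genes 3 and 0. All 3 HSP90 genes were higher, while of the 3 tested small heat shock proteins 1 was higher and 2 were lower. With the GC-content offset, DNAJC had 8 higher and 7 lower, DNAJB 3 and 1, and DNAJA 2 and 0. The HSP90 genes then had 3 and 0 and the small heat shock proteins 0 and 2 (20.3% and 25.3% of all tested genes). Both genes of the mitochondrial chaperonin were higher (1 higher and 1 lower with the offset). Of the 14 tested HSP70 and HSP110 genes 7 were higher and 2 lower (5 and 1 with the offset).

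The fold changes at Nut 1h ran with the GC content of the transcripts, in the members as in the whole table. Across the 63 members the Pearson r of the log2 fold change with GC content was -0.83 after 1 h and -0.16 after 10 h, where all 16137 tested genes with a GC content gave -0.69 and -0.03. These values are across genes of the same libraries, which are not independent. The higher members had a median GC content of 41.0% and the lower ones 56.5%. Of the 35 members under 45% GC, 31 were higher (88.6%, and 72.2% of all tested genes in that range). Of the 12 members over 55% GC, 0 were higher and 9 lower (75.0%, and 75.1% of all tested genes there).

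**Figure D4:**
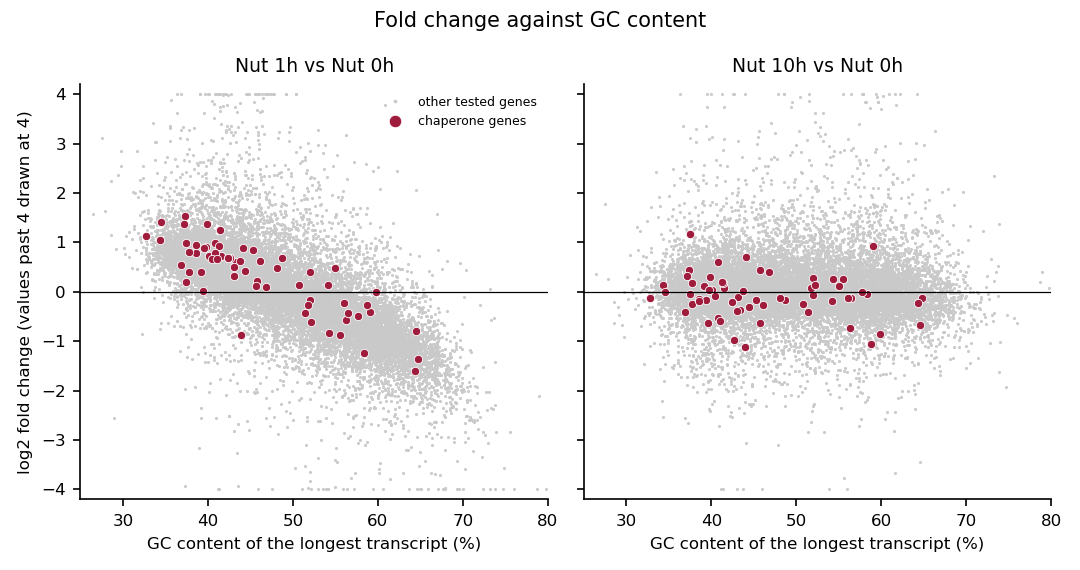
Log2 fold change (y axis) against the GC content of the longest transcript in percent (x axis) for the members (red) and the other tested genes (grey), at Nut 1h (left) and Nut 10h (right). The members run from high to low with rising GC content at Nut 1h (r = -0.83) and show little such slope at Nut 10h (r = -0.16).

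A smooth offset for GC content was also fitted. With it, 22 members (34.9%) were higher and 12 (19.0%) lower at Nut 1h, where 20.3% and 25.3% of all tested genes were called, and the median of the members was 0.12. Of the 37 higher calls 17 kept their direction and call, and of the 13 lower calls 7. The 17 comprised DNAJA1, DNAJA4, DNAJB6, DNAJB9, DNAJC3, DNAJC7, DNAJC10, DNAJC14, DNAJC16, DNAJC25, HSPA4L, HSPA13, HSPH1, HSPD1 and the 3 HSP90 genes, and the 7 comprised DNAJB5, DNAJC1, DNAJC4, DNAJC30, HSPA2, HSPB1 and HSPB8. At Nut 10h all 22 calls were kept with the offset and 6 lower ones (DNAJA4, DNAJC7, HSPA4, HSPA9, HSPA12B and HSPD1) were added, giving 8 higher and 20 lower members, where 16.9% and 22.4% of all tested genes were called. Whether the relation with GC content at Nut 1h arose in the libraries or in the cells was not tested.

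Without the GC-content offset, the 4 highest log2 fold changes among the members at Nut 1h were those of ER chaperones. With it DNAJB6 (0.91) and HSPA1A (0.77) stood above all 4, and other members, among them DNAJA4 (0.60), stood above DNAJC10 and HSPA13. Without the offset, 7 of the 8 ER genes listed were higher and 1 lower, where 34.5% and 32.3% of all tested genes were. Their median log2 fold change was 1.13. DNAJB9 (ERdj4), an HSPA5 partner in ER quality control, had 255 and 279.8 normalized counts in the vehicle, 784 and 761 after 1 h and 366 and 356 after 10 h, and rose by 1.53 ± 0.11 at Nut 1h (adjusted p = 1.65e-07). HSPA13, an HSP70-like ATPase of microsomes, had 736 and 807, 2112 and 1975, and 698 and 846 normalized counts and rose by 1.41 ± 0.11 (adjusted p = 2.7e-07). In both, the Nut 1h libraries stood far above all others.

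DNAJC10 (ERdj5), a disulfide reductase, had 2027 and 2268, 5666 and 5481, and 2507 and 2848 normalized counts. DNAJC3, an inhibitor of the eIF2alpha kinase PERK, had 1477 and 1687, 4209 and 3932, and 1839.8 and 2030.5. They rose by 1.38 and 1.36 at Nut 1h (adjusted p = 1.6e-07 and 1.87e-07). With the GC-content offset the rises were 0.74 for DNAJB9, 0.47 for HSPA13, 0.58 for DNAJC10 and 0.69 for DNAJC3, and these 4 genes and HSP90B1 (0.90, and 0.22 with the offset, adjusted p = 0.0338) were called with it. HSP90B1 was not called when the replicate number was added as a block to the offset (adjusted p = 0.0698). HSPA5 (34833 and 32705, 50637 and 53208, and 34524 and 33552 normalized counts) and DNAJB11, its luminal J partner, had 0.62 and 0.79 without the offset and 0.16 (adjusted p = 0.147) and 0.05 (adjusted p = 0.645) with it. DNAJC1 was the lower gene, at -0.42 (adjusted p = 0.00627), which did not pass without Nut 0h replicate 1 (-0.24, adjusted p = 0.129) or Nut 1h replicate 1 (-0.39, adjusted p = 0.0733). With the offset the ER list had 5 higher and 1 lower, where 20.3% and 25.3% of all tested genes were, and a median of 0.34. Of the 11 tested stress-inducible and abundant cytosolic genes, 5 were higher and 3 lower at Nut 1h without the offset. With it, 6 of those 11 were higher and 2 lower, so rises kept with the offset were not confined to the ER list.

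DNAJC25, an ER membrane protein that shares exons with the read-through gene DNAJC25-GNG10, had 216 and 264, 584 and 554, and 255 and 287 normalized counts and rose by 1.24 at Nut 1h (adjusted p = 1.96e-06, and 0.65 with the offset). DNAJB6, a J-domain protein that suppresses polyglutamine aggregation, rose by 0.49 and had a larger value, 0.91 (adjusted p = 2.17e-08), with the offset. With an offset for transcript length instead, it was not called (0.20, adjusted p = 0.0596). DNAJA4 had 2632 and 3062, 4686 and 4531, and 2366 and 2680.0 normalized counts, and its rise of 0.69 was 0.60 with the offset. DNAJC4 had 935 and 752, 370.2 and 346, and 886 and 743 normalized counts and fell by 1.23 at Nut 1h (adjusted p = 2.62e-06, and -0.56 with the offset). HSPA1A was not called at Nut 1h (adjusted p = 0.988) but had 0.77 (adjusted p = 0.0148) with the offset. HSPA1B had -0.26 (adjusted p = 0.0851) without and 0.43 (adjusted p = 0.00227) with it. Without Nut 0h replicate 2 or Nut 1h replicate 2, and with no offset, HSPA1B was called lower at Nut 1h (-0.39 and -0.49, adjusted p = 0.0191 and 0.0156), as it was without either Nut 10h library (-0.30 in each case).

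**Figure D5:**
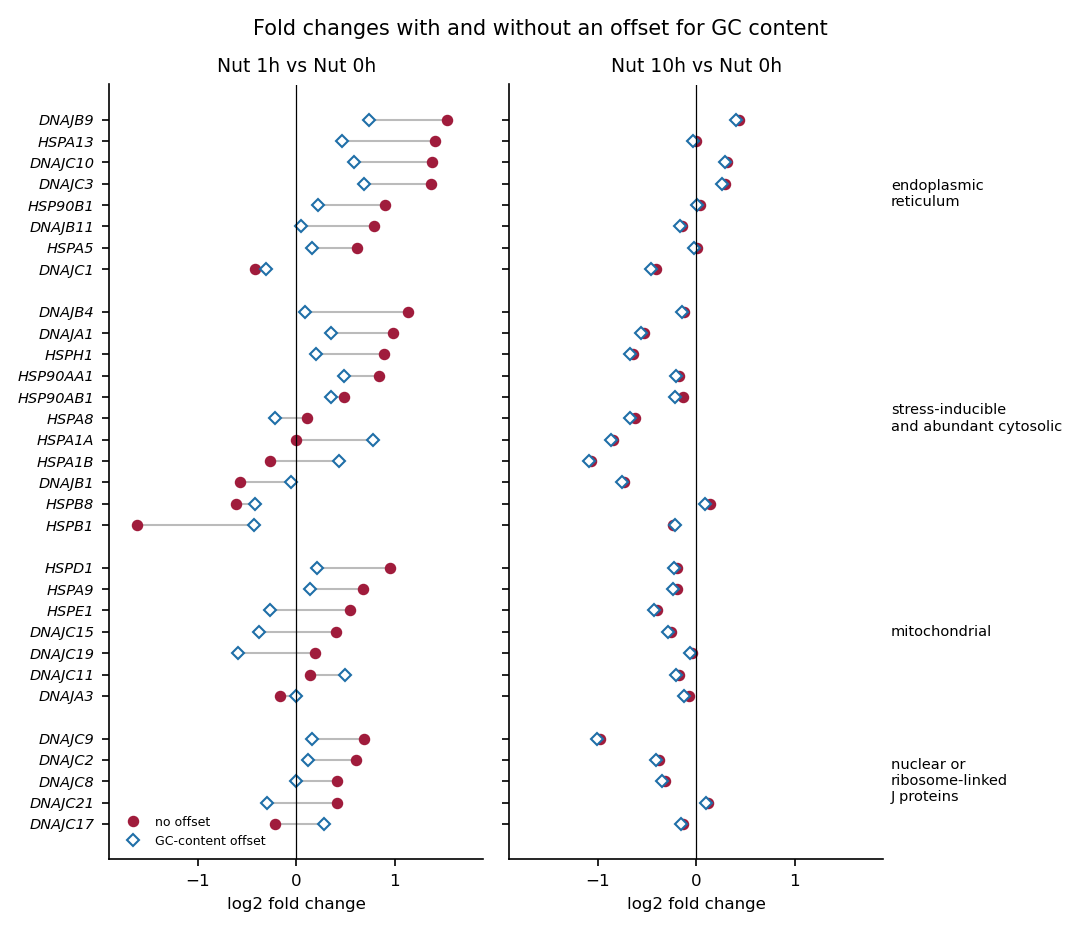
Log2 fold changes (x axis) of the named members of 4 lists without (red circles) and with (open blue diamonds) the GC-content offset, at Nut 1h (left) and Nut 10h (right) against Nut 0h; a line joins the values of 1 gene. At Nut 1h the ER chaperones DNAJB9, HSPA13, DNAJC10 and DNAJC3 keep rises of 0.47 to 0.74 with the offset and 10 named genes on the plot's lists, among them HSPE1, DNAJC15, DNAJC19 and HSPA1B, change sign, while at Nut 10h the paired values nearly coincide.

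Among the 7 listed mitochondrial chaperones, 4 were higher and 0 lower at Nut 1h, where 34.5% and 32.3% of all tested genes were, and 1 was lower at Nut 10h, where 14.9% of all tested genes were. With the GC-content offset 2 were higher and 3 lower at Nut 1h, and 3 were lower at Nut 10h (20.3%, 25.3% and 22.4% of all tested genes). HSPD1, the chaperonin ring, had 42234 and 42389.7 normalized counts in the vehicle, 79700.5 and 83518 after 1 h and 35855 and 38166 after 10 h, and rose by 0.95 at Nut 1h (adjusted p = 1.24e-06, and 0.22, adjusted p = 0.0462, with the offset, or adjusted p = 0.0901 with the offset and the block). HSPE1, its lid, is divergently arranged with HSPD1 and shares exons with the read-through gene HSPE1-MOB4. It had 1191 and 1254, 1834 and 1725, and 873 and 977 normalized counts. Its rise of 0.54 at Nut 1h turned to -0.27 (adjusted p = 0.0054) with the offset, whereas its fall at Nut 10h was -0.40 (adjusted p = 0.00805) and -0.43 with it. HSPA9, the HSP70 of the matrix, rose by 0.67 at Nut 1h (0.14 with the offset, adjusted p = 0.166). DNAJC15 and DNAJC19, both of the inner membrane import motor, had 0.40 and 0.19 at Nut 1h and -0.37 (adjusted p = 0.00991) and -0.59 (adjusted p = 0.000182) with the offset. DNAJC15 was called at Nut 1h without the offset (adjusted p = 0.00557), though not without Nut 0h replicate 2 (0.29, adjusted p = 0.0733) or Nut 1h replicate 2 (0.37, adjusted p = 0.0539), with DESeq2 (0.35, adjusted p = 0.0679) or with an offset for transcript length (0.14, adjusted p = 0.292). With the length offset DNAJC19 was called higher at Nut 1h (0.25, adjusted p = 0.0379), opposite to its call with the GC-content offset. DNAJC11, of the cristae-organising system, had 0.14 without and 0.49 with the offset (adjusted p = 6.77e-05).

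DNAJA3, DNAJB4 and DNAJC17 are on the study's own list of p53 target genes, which it drew from chromatin contacts, p53 binding and histone acetylation rather than from these libraries. DNAJB4, a cytosolic relative of DNAJB1, had 532 and 580.3, 1179 and 1269.9, and 492 and 533 normalized counts, with a log2 fold change of 1.14 at Nut 1h (adjusted p = 7.75e-07), 0.09 with the offset (adjusted p = 0.498) and -0.12 at Nut 10h (adjusted p = 0.452). Exons of GIPC2 overlap it on the same strand. DNAJA3, a mitochondrial J-domain protein, had -0.16 and -0.07 at the 2 times (adjusted p = 0.142 and 0.623). The paper names DNAJA3 as a target that p53 reaches through a loop formed by 1 h. No rise of DNAJA3 was called here at Nut 1h, with or without the offset. DNAJC17 had 398 and 357, 337 and 311, and 383 and 305 normalized counts. Without the offset it had -0.22 at Nut 1h (adjusted p = 0.171) and -0.13 at Nut 10h (adjusted p = 0.493), and neither was called. With the offset it was called higher at Nut 1h (0.29, adjusted p = 0.0496). The paper counts DNAJC17 among the RNA-binding proteins that rise by 1 h of p53 activation. In these libraries such a rise was thus called with the offset and not without it. The reason for this difference was not tested.

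Between the 2 times, 38 members (60.3%) were lower and 11 (17.5%) higher at Nut 10h than at Nut 1h, where 33.7% and 34.2% of all tested genes were. This comparison shares its Nut 1h and Nut 10h libraries with the others. With the GC-content offset 31 were lower and 12 higher, where 28.8% and 29.0% of all tested genes were, and 26 of the 38 lower calls were kept. The 8 members that were higher at Nut 1h and lower at Nut 10h than the vehicle were DNAJA1, DNAJC2, DNAJC8, DNAJC9, HSPA14, HSPB11, HSPE1 and HSPH1. Between the times they had log2 fold changes from -0.73 for DNAJC8 to -1.66 ± 0.12 for DNAJC9, a direction that follows from how they were chosen. With the GC-content offset only DNAJA1 and HSPH1 of these 8 kept both calls against the vehicle. The 6 members higher at both times were DNAJB9, DNAJC3, DNAJC10, DNAJC14, DNAJC16 and HSPA4L, and the 3 lower at both were DNAJB1, DNAJC1 and HSPA2. A further 9 tested members, among them DNAJC12, DNAJC18, DNAJC28 and HSPA1L, were called at neither time.

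The partners of these chaperones were read from a list of 41 genes that are not members, of which 40 were tested and CRYAB was not. At Nut 10h 15 of them (37.5%) were lower and 2 (5.0%) higher, where 14.9% and 14.1% of all tested genes were, with a median log2 fold change of -0.16. The list of HSP90 co-chaperones holds 12 genes, among them TRAP1, which is itself the mitochondrial HSP90 (-0.14, adjusted p = 0.326). Of these 12 genes 7 fell and 0 rose. The 7 were STIP1 (-0.44), which links HSP70 to HSP90, AHSA1 (-0.44), which stimulates the HSP90 ATPase, FKBP5 (-0.63), FKBP4 (-0.47), CHORDC1 (-0.35), PTGES3 (-0.35) and PPID (-0.29). Among the 8 subunits of the cytosolic chaperonin TCP1, CCT2, CCT4 and CCT5 fell, by 0.25 to 0.43, and 0 rose. Some of these calls were near the threshold, with adjusted p = 0.0343 for PPID, 0.024 for TCP1, 0.0288 for CCT2 and 0.0471 for CCT4. Each of these was also called lower with the GC-content offset (adjusted p from 0.00117 to 0.00699). Fits with 1 library left out are not given for the partners. BAG2 (-0.45), BAG4 (-0.37) and HSPBP1 (-0.42), which release or restrain HSP70, and the collagen chaperone SERPINH1 (-0.34) were also lower. The 2 that rose were SIL1 (0.60), the exchange factor of HSPA5, and HSF4 (0.44). At Nut 1h 19 of the 40 were higher and 12 lower, where 34.5% and 32.3% of all tested genes were. With the GC-content offset 13 were higher and 9 lower at Nut 1h (20.3% and 25.3% of all tested genes), and 19 were lower and 2 higher at Nut 10h (22.4% and 16.9%).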

How the data were processed

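RNA-seq counts of 6 libraries (2 replicates of each of 3 conditions, grouped by the sample labels) were analysed. The authors trimmed reads with Trim Galore 0.6.6, aligned them to GRCh37 with STAR 2.7.0f and counted them per gene with featureCounts of Subread 2.0.0, and the deposited counts are not normalized. The strand setting and the treatment of multimapping reads are not given in the sources used here. A second deposited table holds the authors' own comparisons, of which only the pairs of gene identifier and symbol were read. Unmapped value columns numbered 0.

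All 6 libraries entered a single fit of condition in R 4.3.3, made by the quasi-likelihood method of edgeR 4.0.16 (with limma 3.58.1) after filterByExpr and TMM scaling. Benjamini-Hochberg adjustment covered all 16565 tested genes, with 0.05 as the threshold of a call. The script was tested on simulated data. A normalized count is the raw count scaled to the mean effective (TMM) library size. The replicates differed by more than sampling noise (chi-square per degree of freedom of 16.0 in the vehicle, 4.93 after 1 h and 15.9 after 10 h). Separate cultures are not described in the labels, and p-values measure the spread between these libraries only.

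Coordinates, lengths and GC content (of the longest transcript) came from GENCODE lifted to GRCh37, and promoters from RefSeq. Of the 63 tested members 32 share an exon with another gene, 15 of them on the same strand. Named genes were those of the compartment lists, members on the study's target list, and the 8 largest called changes of each comparison whose mean normalized count reached 100 and whose groups did not overlap. Members outside this rule, such as DNAJB6, DNAJA4, DNAJC14, HSPA4, HSPA12A and HSPB11, were named after their values were seen. Members, lists and tests were chosen with earlier results of these data known. Alternatives were other normalizations, filters, thresholds and designs, DESeq2 1.42.0, offsets for GC content and length (loess, span 0.4), each library left out, and the summed HSPA1A and HSPA1B counts, chosen after seeing the data. A floor of 3 counts was used. Protein sequences and the chromatin data were not used here.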

Additional observations from a re-analysis of the deposited data

Results flagged for a closer look

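In 8 members the effects at 1 h and 10 h differed in direction, each being called on one side of Nut 0h at Nut 1h and on the other at Nut 10h, so that a difference between the times follows from how they were chosen and is given as a description. The log2 fold changes of Nut 10h against Nut 1h were -1.66 for DNAJC9, -1.53 for HSPH1, -1.51 for DNAJA1, -1.26 for HSPA14, -0.97 for DNAJC2, -0.94 for HSPE1, -0.73 for DNAJC8 and 1.35 for DNAJB2, and the 2 replicates of each condition did not overlap with those of the other. With the GC-content offset these values were -1.17, -0.87, -0.91, -0.68, -0.52, -0.16, -0.34 and 0.60 in the same order. That of HSPE1 was then not called (adjusted p = 0.0687), and of the 8 only HSPH1 and DNAJA1 remained called on opposite sides of Nut 0h at the 2 times, with 0.20 and 0.35 after 1 h and -0.67 and -0.56 after 10 h. With the replicate block added to the offset, HSPH1 was no longer called after 1 h (adjusted p = 0.0623). HSPB11 had opposite calls as well (0.49 and -0.40), with -0.89 between the times, but with the offset it was not called at Nut 1h (adjusted p = 0.958).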

How the results depend on the processing

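With the GC-content offset, 22 members were higher at Nut 1h in place of 37, and 19 with the offset and the replicate block together. Over all 63 members, the sign differed with the offset in 19 after 1 h, 3 after 10 h and 16 between the times. DNAJB12 was called in opposite directions between the times (0.31 and -0.24 with the offset). Its call with no offset was lost without Nut 1h replicate 1 (0.26) or Nut 1h replicate 2 (0.36). Among the genes named by rule, changes of sign that involved a call, followed by the value with the block added, were at Nut 1h 0.77 and 0.77 for HSPA1A, 0.43 and 0.42 for HSPA1B, -0.27 and -0.27 for HSPE1, -0.37 and -0.37 for DNAJC15, -0.59 and -0.59 for DNAJC19, -0.00597 and -0.00495 for DNAJC8, 0.29 and 0.28 for DNAJC17, -0.30 and -0.29 for DNAJC21 and 0.31 and 0.31 for DNAJB2, and between Nut 1h and Nut 10h 0.0888 and 0.0896 for DNAJC15, 0.53 and 0.53 for DNAJC19, -0.44 and -0.44 for DNAJC17, 0.39 and 0.39 for DNAJC21 and 0.23 and 0.22 for DNAJC16. The cause was not tested. Higher members at Nut 10h numbered 5 with DESeq2, 4 at an adjusted p of at most 0.01 and 4 to 9 with 1 library left out, in place of 8. HSPA6 is included in this range where it passed the low-count filter, as in the fit without Nut 0h replicate 1. It passed only through its Nut 10h counts, so its call there was set by the filter and is not read as a rise. With an absolute log2 fold change of at least 1, fewer genes can pass, and there were 7 higher and 3 lower after 1 h, 1 and 2 after 10 h, and 6 and 12 between the times. The other alternatives left these 6 counts within 1.5 times the values given. An offset for transcript length ended the calls after 1 h of DNAJB6 (0.20), DNAJC1 (-0.15), DNAJC15 (0.14), DNAJC6 (0.20) and HSPB8 (-0.32) and that of DNAJC10 after 10 h (0.12), and HSPA8 was then called higher after 1 h (0.36). The replicate numbers are shared labels and no pairing is described: deviations of same-numbered libraries from their condition means correlated across genes with r from -0.149 to 0.221. The replicate block gave 37 higher and 14 lower members after 1 h, 8 and 14 after 10 h, and 11 and 38 between the times. After 10 h the block added DNAJC18 (adjusted p = 0.0474) and lost DNAJC14 (adjusted p = 0.0527, and 0.0623 with RLE normalization). HSPA1L, with 20.1 normalized counts at most, was called in no comparison. What size of change could be detected in such low genes with 2 libraries a condition was not tested.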
